A study of Mus musculus with 10 samples.

Results

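Polycomb repressive complexes were followed through 10 of their subunit genes in mouse embryonic stem cells with altered DAXX and histone H3.3. The members were chosen by name, as the listed subunit genes present in the deposited table, and all 10 were found among its 20325 genes. Of these, 6 encode parts of Polycomb repressive complex 2, PRC2 (Suz12, Eed, Ezh2, Ezh1, Jarid2 and Mtf2), and 4 encode parts of PRC1 (Rnf2, Ring1, Pcgf6 and Cbx7). Polyadenylated RNA was sequenced from 5 cell lines with 2 biological replicates each, 10 libraries in all. The Daxx-/- line, of strain 129/SvEv, lacks the H3.3 chaperone DAXX, and the Daxx-/- + Daxx WT line is the same line with wild-type Daxx added back. The H3.3 KO line, of strain 129 x C57BL/6J, was used alone, with wild-type H3.3 (H3.3 KO + H3.3 WT) and with the double mutant H3.3 L126A-L130A (H3.3 KO + H3.3 L126A-L130A). That mutant protein binds DAXX but is not stably held in nucleosomes. The added genes were FLAG-tagged, delivered by lentivirus, driven by an EF1 promoter and selected with puromycin. No line is labelled as carrying an empty vector. In comparisons with a parent line, the added gene thus cannot be told apart from transduction and selection. All lines grew without feeder cells on gelatin, in medium with LIF and the inhibitors CHIR99021 and PD0325901 (2i).

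PRC2 methylates a lysine in the tail of histone H3 through the enzyme EZH2 or its relative EZH1, which work only when bound to EED and SUZ12, and accessory proteins such as JARID2 and MTF2 help to bring the complex to CpG islands. PRC1 attaches ubiquitin to histone H2A through RING1 or RNF2 (also called RING1B); in canonical PRC1 a CBX protein such as CBX7 reads the methyl mark left by PRC2, while PCGF6 defines a variant complex, PRC1.6, that keeps germ-cell genes silent. In embryonic stem cells both complexes occupy the CpG-rich promoters of silent developmental genes. Separate chaperones place H3.3 into chromatin, HIRA at genes and DAXX with ATRX at some repeats, such as telomeres.

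Total expected counts ran from 15463625 in H3.3 KO + H3.3 L126A-L130A replicate 1 to 21396585 in Daxx-/- + Daxx WT replicate 1. Levels are given as CPM, the counts scaled to a common library size, replicate 1 before replicate 2, and differences as log2 fold changes from an edgeR quasi-likelihood fit of all 10 libraries, with p-values adjusted over the 13201 genes tested. All 10 members passed the filter on low counts. Whether groups overlap is given as a description only, since 2 libraries against 2 can easily fall apart without a change. The share of all genes without overlap was not counted. The genes named by the labels were checked before the members. H3f3a, which encodes H3.3, was at 491 and 381 CPM in Daxx-/-, 485 and 494 in Daxx-/- + Daxx WT, 5.19 and 10.9 in H3.3 KO, 3.62 and 4.38 in H3.3 KO + H3.3 WT, and 5.25 and 2.84 in H3.3 KO + H3.3 L126A-L130A. The 6 libraries of the H3.3 KO family were thus far below the 4 of the Daxx-/- family, with no overlap. H3f3b, the second gene for H3.3, was at 313 and 379.9 CPM in Daxx-/-, 116 and 84.3 in Daxx-/- + Daxx WT, 509 and 719.6 in H3.3 KO, 204 and 139 in H3.3 KO + H3.3 WT, and 386 and 324 in H3.3 KO + H3.3 L126A-L130A. It was not low in H3.3 KO, so its gene-level count does not check the label there. Each line with an added gene was below its parent line in H3f3b, without overlap. The mean of neither H3f3a nor H3f3b was higher in the lines with added H3.3 than in H3.3 KO, so the gene-level counts do not show the added H3.3, and these lines are described by their labels alone. Daxx was at 82.5 and 72.8 CPM in Daxx-/-, 206 and 206 in Daxx-/- + Daxx WT, 61.9 and 61.4 in H3.3 KO, 62.3 and 59.3 in H3.3 KO + H3.3 WT, and 101 and 67.4 in H3.3 KO + H3.3 L126A-L130A. The libraries with added Daxx were the highest, but the Daxx-/- libraries were not below those of H3.3 KO and H3.3 KO + H3.3 WT, so the gene-level count does not check that deletion.

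Of 8 markers of mouse embryonic stem cells, 7 were in the table, and all 7 passed the filter. Their summed level ran from 5293 CPM in Daxx-/- + Daxx WT replicate 1 to 7198 CPM in H3.3 KO + H3.3 WT replicate 1, and Dppa5a was the most abundant in every library. The 6 fibroblast markers summed to 7.08 to 51.1 CPM, with Thy1 the most abundant, and Col1a2 and Col3a1 were under 1 CPM in every library. The 6 primitive endoderm markers summed to 4.16 to 19.02 CPM, with Gata4 the most abundant in 9 libraries and Dab2 in Daxx-/- replicate 2. The 5 primed epiblast markers summed to 56.3 to 285 CPM, and Dnmt3b in H3.3 KO + H3.3 L126A-L130A replicate 1 alone was at 279 CPM. The stem-cell markers were thus abundant in all 10 libraries, as the label has it, while the fibroblast sum was highest in Daxx-/- and the primed sum highest in H3.3 KO + H3.3 L126A-L130A replicate 1. In such bulk samples, fewer cells of a type and less RNA per cell cannot be told apart, and the part of these markers in the results on the members was not tested.

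Per kb of exon, Suz12 had the highest mean of the members, at 116 ± 40.5 CPM per kb (mean ± SD over 10 libraries), beside 77.8 ± 22.99 for Mtf2 and 45.4 ± 8.44 for Eed. The line means of Suz12 ran from 72.8 in Daxx-/- + Daxx WT to 186 in H3.3 KO. In H3.3 KO + H3.3 WT it was level with Mtf2 (101 and 99.6 CPM per kb), and by the longest transcript it was below Mtf2 there (114 and 139.8). A group of 3 followed within their spreads: Ezh2 at 32.98 ± 4.06, Rnf2 at 32.5 ± 2.30 and Jarid2 at 31.4 ± 6.68 CPM per kb. With the longest transcript as the length that group came apart, Ezh2 at 79.03 being near Eed at 84.1 and above Rnf2 at 41.9 and Jarid2 at 36.5. Cbx7 (19.1 ± 2.58 CPM per kb) and Pcgf6 (16.04 ± 2.45) were within their spreads of each other too, and by the longest transcript they changed places, Pcgf6 at 28.5 and Cbx7 at 20.4. Ezh1 (6.37 ± 1.42) and Ring1 (2.92 ± 0.643 CPM per kb) were the lowest. Each enzyme pair thus had a major and a minor member: per kb, Ezh2 was 3.03 to 8.54 times Ezh1 over the 10 libraries, and Rnf2 was 8.17 to 17.2 times Ring1. The ratio of Suz12 to Eed, subunits of the same core complex, ranged from 1.38 to 4.10 per kb, and with the longest transcript from 0.844 to 2.50, so whether Suz12 RNA exceeded Eed RNA in every library rests on the length used.

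**Figure D1:**
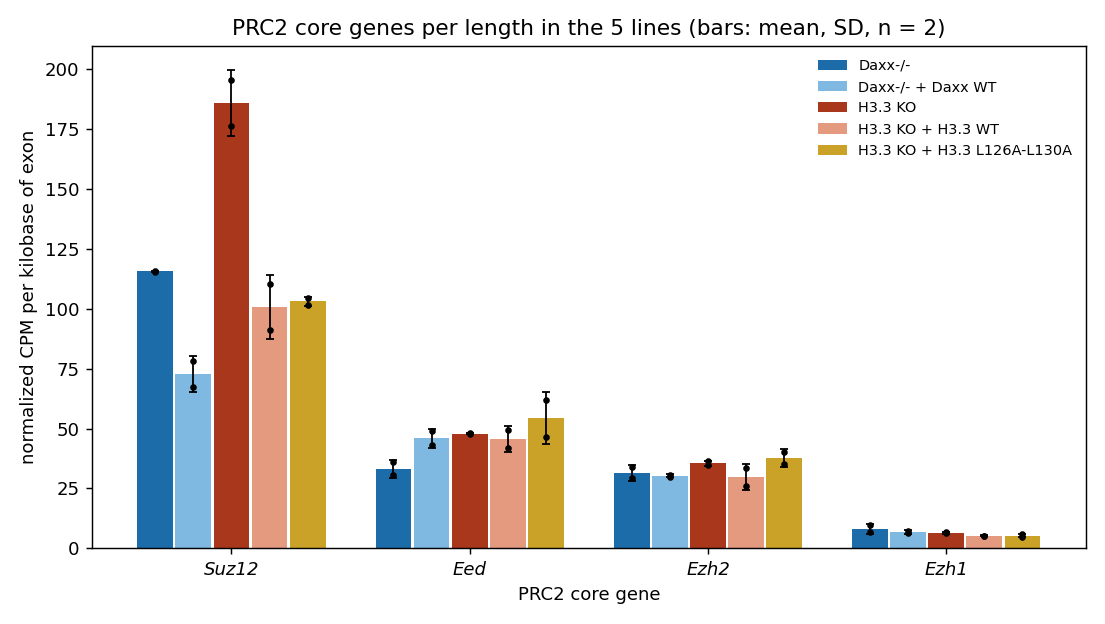
Level per kb of union exon (CPM per kb, vertical axis from 0) of Suz12, Eed, Ezh2 and Ezh1 in the 5 lines, with bars for the mean of 2 libraries, error bars for the SD and points for libraries. Suz12 reached 196 CPM per kb in an H3.3 KO library and was lowest in Daxx-/- + Daxx WT at 67.4.

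Promoter sequence of Suz12 and Ezh2 is shown because E2F factors are known regulators of PRC2 core genes in dividing cells, these are the member windows with an E2F-type motif, and Suz12 was the member that moved most. Windows from 250 bases before to 50 after the start site (RefSeq, build GRCm38.p6) were found for 10 of 10 members, on chromosomes 11 (Suz12 and Ezh1), 7 (Eed), 6 (Ezh2), 13 (Jarid2), 5 (Mtf2), 1 (Rnf2), 17 (Ring1), 19 (Pcgf6) and 15 (Cbx7), 12 windows in all since Jarid2 and Mtf2 have 2. The E2F-type motifs TTTCCCGC and TTTGGCGC and the CCAAT box were searched on both strands; the motifs do not overlap each other where found. The Suz12 run covers chr11:79992856-79993105 on the + strand, upstream of the start site, with TTTCCCGC (first base 219 bases before the start) and CCAAT (61 before) in capitals. The Ezh2 run covers chr6:47595009-47595038 on the - strand and crosses the start site, with TTTGGCGC in capitals from base 4 after it. Both are written 5′ to 3′.
Suz12: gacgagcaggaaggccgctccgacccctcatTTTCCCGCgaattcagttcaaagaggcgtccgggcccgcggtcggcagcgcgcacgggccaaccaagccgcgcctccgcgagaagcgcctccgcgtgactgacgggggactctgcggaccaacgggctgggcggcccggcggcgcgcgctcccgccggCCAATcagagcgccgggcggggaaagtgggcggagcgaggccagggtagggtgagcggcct
Ezh2: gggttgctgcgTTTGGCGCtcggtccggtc
TTTCCCGC was in 1.07% of all 32851 promoter windows and TTTGGCGC in 0.514%; 1.56% held either, as did 2 of the 12 member windows, those of Suz12 and Ezh2. CCAAT was in 37.4% of all windows and in 7 of the 12. The Suz12 window had 41 CpG, more than 96.5% of all windows have, where the median was 7; the other members had 17 to 37 in their windows, except the second Mtf2 window with 2. These matches describe the sequence and do not show binding.

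Suz12, the core subunit that holds the PRC2 enzyme together, had the widest range of line means among the members, 1.35 log2. It was at 573 and 571 CPM in Daxx-/-, 333 and 387 in Daxx-/- + Daxx WT, 871 and 968 in H3.3 KO, 546 and 452 in H3.3 KO + H3.3 WT, and 517 and 503 in H3.3 KO + H3.3 L126A-L130A. Every H3.3 KO library was above every other library, the Daxx-/- + Daxx WT libraries were the lowest, and in each of the 3 comparisons of an added gene with its parent line the groups did not overlap, the parent being higher. With Daxx WT the log2 fold change was -0.67 (SE 0.14), which did not pass in edgeR (p 0.00101, adjusted p 0.0544). With H3.3 WT it was -0.88 (SE 0.14) and did not pass either (p 0.000139, adjusted p 0.0526). With H3.3 L126A-L130A it was -0.85 (SE 0.14) and passed (adjusted p 0.0347). The last 2 comparisons share the H3.3 KO libraries. Between the mutant and H3.3 WT the difference was 0.033 (SE 0.14, adjusted p 0.970 in edgeR), with overlapping groups.

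These Suz12 calls lay near the threshold, and the processing decided them while the direction held throughout. For Daxx WT, 4 of 8 alternative fits passed, with adjusted p from 0.000701 to 0.268. For H3.3 WT, 7 of 8 passed, from 2.36e-06 to 0.0511, the exception being library size alone. For the mutant, 7 of 8 passed, from 4.41e-06 to 0.0644, the exception being the comparison fitted alone. Leaving out Daxx-/- replicate 1 brought the Daxx WT change to an adjusted p of 0.0363, and with each of the other 9 left out it did not pass. The H3.3 WT change passed without Daxx-/- replicate 1 (0.0371) or Daxx-/- replicate 2 (0.0346), and with each of the other 8 left out it did not. The mutant change passed without Daxx-/- replicate 1 (0.0264) or replicate 2 (0.0256). It did not pass without Daxx-/- + Daxx WT replicate 1 (0.0532) or 2 (0.0544), H3.3 KO replicate 1 (0.100) or 2 (0.257), H3.3 KO + H3.3 WT replicate 1 (0.0766) or 2 (0.0751), or H3.3 KO + H3.3 L126A-L130A replicate 1 (0.245) or 2 (0.0841). Over these 10 fits the log2 fold change of Suz12 stayed between -0.78 and -0.56 for Daxx WT, between -1.03 and -0.75 for H3.3 WT and between -0.92 and -0.77 for the mutant.

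Passing for the mutant and not for Daxx WT does not show that the Suz12 effects differed, so the difference of effects was tested. The H3.3 WT effect on Suz12 minus the Daxx WT effect was -0.22 log2 (SE 0.20, adjusted p 0.649 in edgeR), and the mutant effect minus the Daxx WT effect was -0.18 (SE 0.20, adjusted p 0.763). Both differences were about the size of their errors, and in 7 alternative fits, chosen after seeing the data, the adjusted p of the former ran from 0.529 to 0.748. The genes next to Suz12 on chromosome 11, looked at after its values were seen, also had negative fold changes in all 3 comparisons. Utp6, 30.7 kb away, had -0.28, -0.49 and -0.50 log2 with Daxx WT, H3.3 WT and the mutant, none of which passed (adjusted p 0.342, 0.253 and 0.174 in edgeR). Crlf3, 12.4 kb away, had -0.20, -0.37 and -0.49 log2, and none passed (adjusted p 0.517, 0.392 and 0.193). Suz12 thus had a larger decrease than either of these neighbours in all 3 comparisons, and the difference from them was not tested. By Pearson's r of log2(CPM + 1) over the 10 libraries, which share their lines, the genes with levels most like Suz12 were Specc1 (r 0.972, Spearman's rho 0.927), Nipsnap1 (0.955, 0.915), Pde3b (0.954, 0.806), 9030625A04Rik (0.952, 0.842) and Aftph (0.951, 0.927), of 13200 genes compared.

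**Figure D2:**
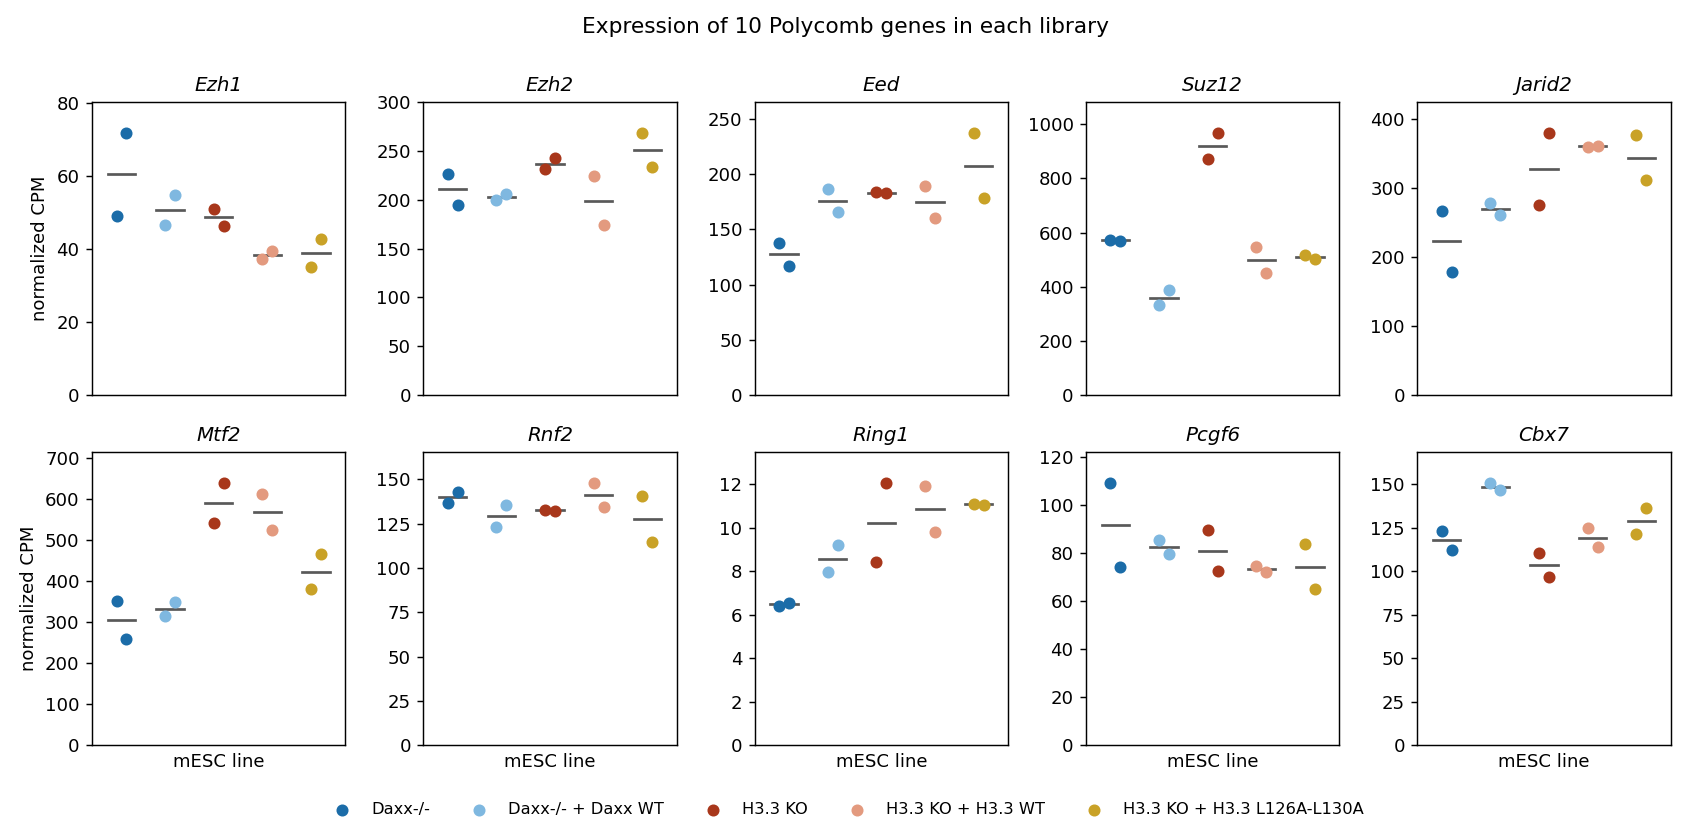
Level (CPM, linear axes from 0) of each of the 10 members in the 10 libraries, 1 panel a gene, with points for libraries and a line for the mean of each cell line. The 2 H3.3 KO libraries stand above the rest for Suz12, and the 6 libraries of the H3.3 KO family stand above the 4 Daxx-/- family libraries for Mtf2.

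Eed, the subunit that binds the methyl mark and switches the enzyme on, was at 137 and 117 CPM in Daxx-/-, 187 and 165 in Daxx-/- + Daxx WT, 184 and 183 in H3.3 KO, 189 and 160.4 in H3.3 KO + H3.3 WT, and 237 and 178 in H3.3 KO + H3.3 L126A-L130A. Both Daxx-/- libraries were the lowest of the 10, and with Daxx WT both were higher, with no overlap. The log2 fold change there was 0.47 (SE 0.17, p 0.0229), which did not pass over all genes in edgeR (adjusted p 0.165). Of 8 alternative fits 1 passed, the one with replicate number as a block, and the adjusted p ran from 0.0413 to 0.358. In the H3.3 comparisons the groups overlapped, with -0.069 for H3.3 WT (adjusted p 0.909) and 0.18 for the mutant (adjusted p 0.645). Suz12 and Eed, partners in the core, thus had fold changes of opposite sign with Daxx WT. Their ratio per kb was 3.23 and 3.77 in the Daxx-/- libraries and 1.38 and 1.81 with Daxx WT. In H3.3 KO it was 3.67 and 4.10, the latter the highest of the 10 libraries.

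Ezh2, the main methyltransferase of dividing cells, was at 226 and 195 CPM in Daxx-/-, 200.03 and 206 in Daxx-/- + Daxx WT, 232 and 242 in H3.3 KO, 225 and 174 in H3.3 KO + H3.3 WT, and 269 and 234 in H3.3 KO + H3.3 L126A-L130A. Its line means spanned 0.34 log2, and the highest and the lowest library, H3.3 KO + H3.3 L126A-L130A replicate 1 and H3.3 KO + H3.3 WT replicate 2, were both of the H3.3 KO family. No Ezh2 comparison passed in edgeR; the largest fold change was 0.33 (SE 0.16, p 0.0621, adjusted p 0.440), for the mutant against H3.3 WT, where the groups did not overlap. With Daxx WT the Ezh2 change was -0.055 (SE 0.16, adjusted p 0.858). Ezh1, the methyltransferase known best from resting cells, was at 49.1 and 71.7 CPM in Daxx-/-, 46.6 and 54.8 in Daxx-/- + Daxx WT, 50.96 and 46.4 in H3.3 KO, 37.2 and 39.4 in H3.3 KO + H3.3 WT, and 35.04 and 42.8 in H3.3 KO + H3.3 L126A-L130A. Daxx-/- replicate 2 was the highest library, and both H3.3 KO libraries were above those with H3.3 WT and with the mutant. Those Ezh1 differences, -0.35 with H3.3 WT (SE 0.20, adjusted p 0.518 in edgeR) and -0.32 with the mutant (SE 0.20, adjusted p 0.463), did not pass. Leaving out Daxx-/- replicate 2 turned the Ezh1 change with Daxx WT from -0.25 to 0.039, so its direction rests on that library.

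Jarid2, a PRC2 accessory subunit that binds nucleosomes and helps the complex to its targets, was at 267 and 179 CPM in Daxx-/-, 279 and 261 in Daxx-/- + Daxx WT, 276 and 380.2 in H3.3 KO, 360.3 and 361 in H3.3 KO + H3.3 WT, and 377 and 312 in H3.3 KO + H3.3 L126A-L130A. Daxx-/- replicate 2 was the lowest library, and all 4 comparisons within a family had overlapping groups. Jarid2 fold changes there ran from -0.069 for the mutant against H3.3 WT to 0.28 for Daxx WT, and none passed in edgeR (adjusted p 0.476 for Daxx WT). Mtf2, a Polycomb-like protein that ties PRC2 to unmethylated CpG-rich DNA, was at 352 and 258 CPM in Daxx-/-, 316 and 349.9 in Daxx-/- + Daxx WT, 541 and 637 in H3.3 KO, 612 and 523 in H3.3 KO + H3.3 WT, and 379 and 465 in H3.3 KO + H3.3 L126A-L130A. The libraries of H3.3 KO and H3.3 KO + H3.3 WT were the highest, those with the mutant were between, and those of the Daxx-/- family were the lowest. Against H3.3 KO the mutant had a log2 fold change of -0.48 (SE 0.19, p 0.0294, adjusted p 0.235 in edgeR), and against H3.3 WT -0.43 (SE 0.19, p 0.0473, adjusted p 0.398). Neither passed, though the groups did not overlap in either, and with H3.3 WT itself Mtf2 differed from H3.3 KO by -0.054 (adjusted p 0.936). Mtf2 shares 395 exon bases with Tmed5 on the opposite strand (GENCODE vM21), and the library kit did not keep the strand, so reads of that stretch cannot be told apart by strand. The same holds for 178 exon bases of Suz12 (with Gm26563), 261 of Eed (E230029C05Rik), 174 of Ezh2 (Gm26625), 158 of Rnf2 (Trmt1l) and 100 of Cbx7 (Apobec3). Per library Tmed5 had 19.9 to 56.9 CPM, and its share in the Mtf2 differences was not tested.

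Rnf2, the main ubiquitin ligase of PRC1, was the steadiest member, at 137 and 143 CPM in Daxx-/-, 123 and 135 in Daxx-/- + Daxx WT, 133 and 132 in H3.3 KO, 148 and 135 in H3.3 KO + H3.3 WT, and 141 and 115 in H3.3 KO + H3.3 L126A-L130A. The libraries with Daxx WT were below Daxx-/- and those with H3.3 WT above H3.3 KO, by margins smaller than the gap between the replicates with the added gene. Rnf2 line means spanned 0.15 log2, the narrowest range of the 10, and its fold changes within the families ran from -0.14 to 0.091 with no adjusted p below 0.655 in edgeR. Ring1, its less abundant relative, was at 6.43 and 6.54 CPM in Daxx-/-, 7.97 and 9.20 in Daxx-/- + Daxx WT, 8.44 and 12.04 in H3.3 KO, 11.9 and 9.81 in H3.3 KO + H3.3 WT, and 11.1 and 11.05 in H3.3 KO + H3.3 L126A-L130A. The Daxx-/- libraries were the lowest, and with Daxx WT Ring1 was higher without overlap, by 0.40 log2 (SE 0.26, adjusted p 0.379), which did not pass. Ring1 lies on chromosome 17, 105 kb from Daxx, and any part of that position in its levels was not tested. Pcgf6, which defines PRC1.6, was at 109 and 74.2 CPM in Daxx-/-, 85.3 and 79.6 in Daxx-/- + Daxx WT, 89.6 and 72.6 in H3.3 KO, 74.7 and 72.3 in H3.3 KO + H3.3 WT, and 83.7 and 65.1 in H3.3 KO + H3.3 L126A-L130A. Daxx-/- replicate 1 was the highest library and H3.3 KO + H3.3 L126A-L130A replicate 2 the lowest, and in all comparisons the Pcgf6 groups overlapped. Its fold changes ran from -0.19 to 0.018 log2, none passing (adjusted p 0.691 for Daxx WT, 0.801 for the mutant). Cbx7, the reader of the methyl mark that is most typical of embryonic stem cells, was at 123 and 112 CPM in Daxx-/-, 151 and 147 in Daxx-/- + Daxx WT, 111 and 97.02 in H3.3 KO, 125 and 114 in H3.3 KO + H3.3 WT, and 122 and 136 in H3.3 KO + H3.3 L126A-L130A. Each line with an added gene was above its parent line without overlap, but in edgeR neither the 0.34 with Daxx WT (SE 0.13, p 0.0329, adjusted p 0.191) nor the 0.31 with the mutant (SE 0.13, p 0.0446, adjusted p 0.281) nor the 0.20 with H3.3 WT (adjusted p 0.570) passed.

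The Daxx comparison asks what returning DAXX, along with transduction and selection, does to cells that lack it. In edgeR, 0 of 10 members passed an adjusted p of 0.05, beside 1.41% of all genes tested (186), and 0 of 10 passed with at least a 2-fold change, beside 1.08% (143). At unadjusted p under 0.05 there were 3 of 10 members (Suz12, Eed and Cbx7) beside 21.8% of all genes, while DESeq2 and limma each called 1, Suz12, beside 8.78% and 2.53%. Over all settings the count of members ran from 0 to 2, the latter being Eed and Suz12 with the replicate block, where 10.9% of all genes passed. The main fit has no such block, and the replicate differences of Daxx-/- and Daxx-/- + Daxx WT correlated at 0.566. The median log2 fold change was 0.036 over the members and -0.024 over all genes tested. Without Daxx-/- replicate 1 the 2-fold count over all genes was 1074, and 1 member, Suz12, then passed by adjusted p without a 2-fold change, beside 13.9% of all genes.

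The comparison of H3.3 WT with H3.3 KO asks the same of H3.3. In edgeR, 0 of 10 members passed, beside 0.25% of all genes (33), and with a 2-fold change 0 of 10 beside 0.25% (33). At unadjusted p under 0.05 there was 1 of 10 members, beside 13.3% of all genes: Suz12, which DESeq2 and limma each called, beside 2.89% and 0.447%. The members' median was -0.062 log2 and that of all genes 0.016. The comparison of the mutant with H3.3 KO asks what H3.3 that is not held in nucleosomes does, again along with transduction and selection. Here 1 of 10 members passed in edgeR, Suz12, beside 0.962% of all genes (127), and 0 of 10 with a 2-fold change, beside 0.788% (104). A single gene is too few to read as a raised share. At unadjusted p under 0.05 there were 3 of 10 members (Suz12, Mtf2 and Cbx7) beside 16.9% of all genes, DESeq2 and limma each called 1, beside 5.79% and 1.62%, and the median was 0.0084 log2 beside 0.030 for all genes.

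The comparison of the mutant with H3.3 WT asks what nucleosome deposition adds. A difference in the amount of added H3.3, which the gene-level counts do not show, cannot be told apart from it. In edgeR, 0 of 10 members passed, beside 0.53% of all genes (70), and 0 of 10 with a 2-fold change, beside 0.515% (68). At unadjusted p under 0.05 there was 1 of 10 members, Mtf2, beside 12.3% of all genes, and DESeq2 and limma called 0. The median was 0.026 log2 for the members and 0.0026 for all genes tested. With 2 libraries a line, the SE of a member's fold change in this comparison ran from 0.13 for Cbx7 to 0.25 for Ring1, which limits the size of change that could be seen. The difference between the H3.3 and the Daxx effects was tested for every gene: 0 of 10 members passed in edgeR for H3.3 WT and 0 of 10 for the mutant, where 6 and 3 of 13201 genes did. At unadjusted p under 0.05 there were 0 of 10 members for H3.3 WT, beside 13.9% of all genes, and 1 of 10 for the mutant, beside 11.2%: Mtf2, whose mutant effect minus its Daxx WT effect was -0.61 (SE 0.26, p 0.0462, adjusted p 0.437).

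**Figure D3:**
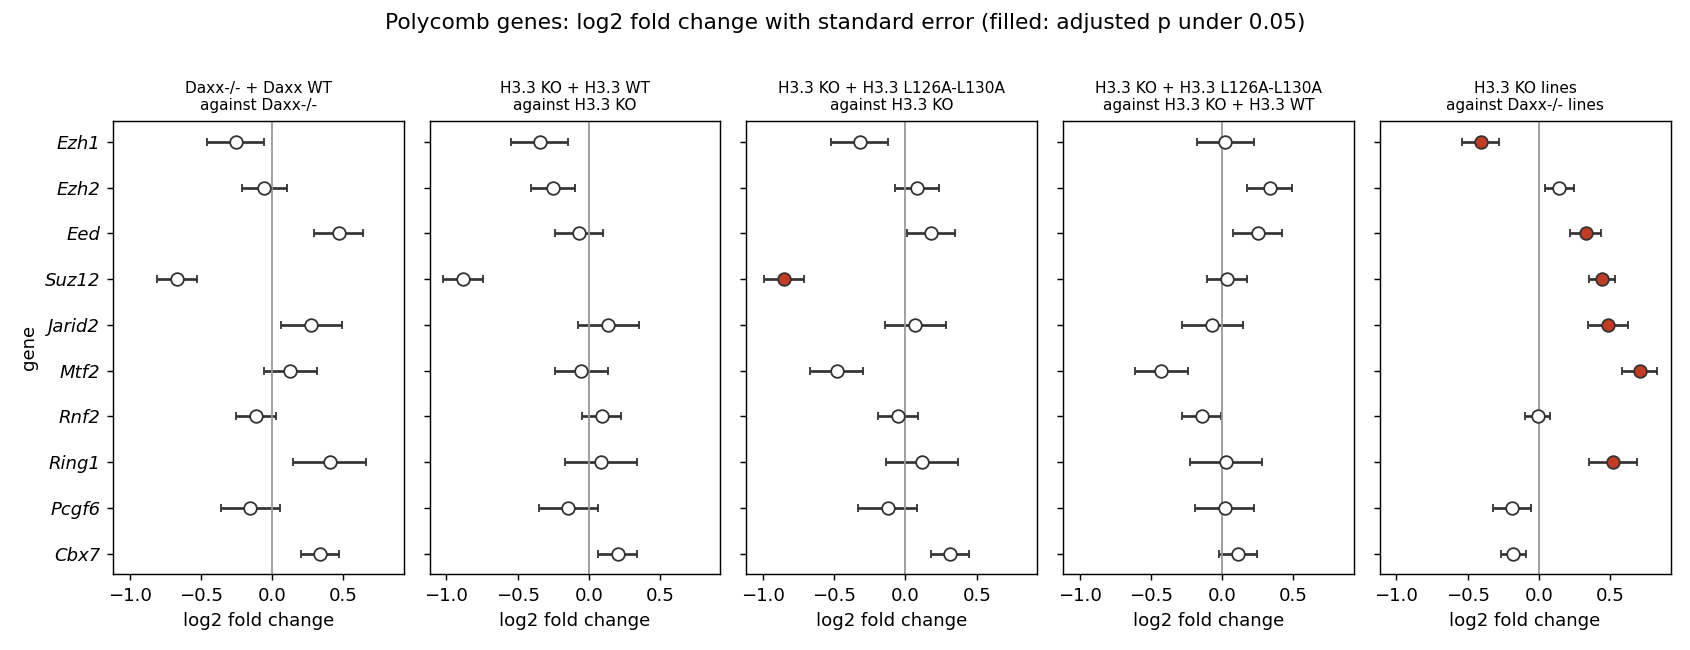
Log2 fold change (horizontal axis, error bars 1 SE) of the 10 members in the 5 comparisons, filled where the adjusted p was under 0.05. Suz12 lies between -0.88 and -0.67 in the 3 comparisons of an added gene with its parent line, and the filled points are Suz12 with the mutant and 6 members between the families.

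More members were called between the 2 families of lines than within them. This comparison sets the 6 H3.3 KO family libraries against the 4 Daxx-/- family libraries, and strain and derivation differ along with the genotype, so these cannot be told apart. In edgeR, 6 of 10 members passed, beside 39.9% of all genes (5271): 5 were higher in the H3.3 KO lines, where 19.3% of all genes were, and 1 was lower, where 20.6% were. With a 2-fold change 0 of 10 passed, beside 12.5%, and at unadjusted p under 0.05 there were 6, beside 49.5%; DESeq2 and limma each called 6, beside 43.4% and 40.3%. With so large a share of all genes called, 6 of 10 is not set apart from the rest. The members' median was 0.24 log2, that of all genes -0.0098. Cell markers differed between the families too: 4 of 7 stem-cell markers passed, all higher, and their list had a median of 0.36 log2. Of the fibroblast markers 2 of 4 passed, both lower, and of the primed epiblast markers 1 of 4, also lower. Of the primitive endoderm markers 0 of 4 passed. The part of these marker differences in the members' calls was not tested.

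Mtf2 had the largest difference between the families, 0.71 log2 (SE 0.12, adjusted p 0.00224 in edgeR), and its 6 and 4 libraries did not overlap. Its antisense neighbour Tmed5 differed the same way, by 1.17 (adjusted p 6.13e-05). Suz12 was higher by 0.44 (SE 0.091, adjusted p 0.00511), with a wide spread within the H3.3 KO family, 452 to 968 CPM, that overlaps the Daxx-/- libraries. Both calls, Mtf2 and Suz12, stood without each library in turn, with adjusted p up to 0.0137 and 0.0299. Ring1 was higher by 0.52 (SE 0.17, adjusted p 0.0337), Jarid2 by 0.49 (SE 0.14, adjusted p 0.0231) and Eed by 0.33 (SE 0.11, adjusted p 0.0417). Ezh1 was the member that was lower, at -0.41 (SE 0.13, adjusted p 0.0321). Ezh2 at 0.14, Pcgf6 at -0.19 and Cbx7 at -0.18 did not pass in edgeR (adjusted p 0.291, 0.283 and 0.126). Rnf2 was at -0.0088 (adjusted p 0.948), a value whose sign turned with TMM factors (0.0012) and with library size alone (0.043).

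The other 4 family calls were each lost without 1 or more single libraries. Jarid2 no longer passed in edgeR without Daxx-/- + Daxx WT replicate 1 (0.0597), Daxx-/- + Daxx WT replicate 2 (0.0749), H3.3 KO replicate 2 (0.0575), H3.3 KO + H3.3 WT replicate 1 (0.0520) or H3.3 KO + H3.3 WT replicate 2 (0.0507). Ezh1 passed without Daxx-/- replicate 1 (0.00519), Daxx-/- + Daxx WT replicate 1 (0.0477) or H3.3 KO + H3.3 L126A-L130A replicate 2 (0.0325), and without each of the other 7 libraries it did not (0.0560 to 0.112). Eed passed without Daxx-/- replicate 1 (0.0311) or H3.3 KO + H3.3 L126A-L130A replicate 2 (0.0185), and without each of the other 8 it did not (0.0516 to 0.137). Ring1 passed without H3.3 KO replicate 1 (0.0265) and without each of the other 9 it did not (0.0524 to 0.119). With the other settings Ezh1 missed the threshold with library size alone, its adjusted p running from 0.0130 to 0.0901, and Ring1 with no filter (0.0174 to 0.0502). With each library left out in turn, the log2 fold changes of these 4 ran from 0.36 to 0.64 for Jarid2, -0.53 to -0.26 for Ezh1, 0.26 to 0.40 for Eed and 0.43 to 0.60 for Ring1.

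Other Polycomb genes were counted from lists of their complexes. In all 4 comparisons within a family, edgeR called 0 of the 8 other PRC2 genes tested, 0 of 10 canonical PRC1 genes, 0 of 20 variant PRC1 genes and 0 of 11 genes of the PR-DUB deubiquitinase and Polycomb antagonists. At unadjusted p under 0.05, the Daxx WT comparison had 0, 3, 3 and 1 of these 4 lists in that order, the H3.3 WT comparison 0, 2, 2 and 2, the mutant against H3.3 KO 1, 2, 2 and 3, and the mutant against H3.3 WT 0, 0, 0 and 1. Over all genes tested that share was 21.8%, 13.3%, 16.9% and 12.3% in the same order of comparisons. Over these lists and comparisons limma called 0, and DESeq2 called 1 of 10 canonical genes with Daxx WT and 1 of 20 variant genes with the mutant against H3.3 KO, beside 8.78% and 5.79% of all genes. Leaving out Daxx-/- replicate 1 gave 1 canonical PRC1 and 1 PR-DUB list call with Daxx WT, where 13.9% of all genes passed. The largest fold changes of these 4 lists, none of which passed, were Asxl3 of the PR-DUB list at 1.35 (adjusted p 0.244) in the mutant against H3.3 WT, Yaf2, a partner of RING1 and RNF2 in variant PRC1, at -1.09 (adjusted p 0.0842) in the mutant against H3.3 KO, and Cbx8 at -1.07 (adjusted p 0.162) with Daxx WT. Fitted alone, the H3.3 WT comparison had 1 call each among the other PRC2, the canonical PRC1 and the PR-DUB genes, beside 5.69% of all genes.

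Between the families, 4 of 8 other PRC2 genes passed in edgeR. E130012A19Rik (Epop), Phf19 and Aebp2, accessory subunits, were higher in the H3.3 KO lines, at 1.77, 1.24 and 0.44 log2 (adjusted p 0.00361, 0.0275 and 0.0261), and the histone-binding Rbbp7 was lower, at -0.61 (adjusted p 0.000875). Of 10 canonical PRC1 genes 4 passed: Phc2 (0.54) and Phc1 (0.52) were higher, and Cbx6 (-0.90) and Phc3 (-0.80) lower. Of 20 variant PRC1 genes 10 passed, with Fbrsl1 (0.72), Fbrs (0.62) and Dcaf7 (0.29) higher and 7 lower, from -0.85 for Bcor to -0.43 for Bcorl1. Of 11 PR-DUB and antagonist genes 3 passed, all higher: Foxk1 (0.48), Bap1 (0.47) and Kdm6b (0.47). These shares lie around the 39.9% of all genes. Without 1 library the counts ran from 2 to 4 for other PRC2 genes (2 without either Daxx-/- + Daxx WT or either H3.3 KO + H3.3 WT replicate), from 7 to 10 for variant PRC1, from 1 (without Daxx-/- + Daxx WT replicate 2) to 4 for the PR-DUB list, and stayed at 4 for canonical PRC1.

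**Figure D4:**
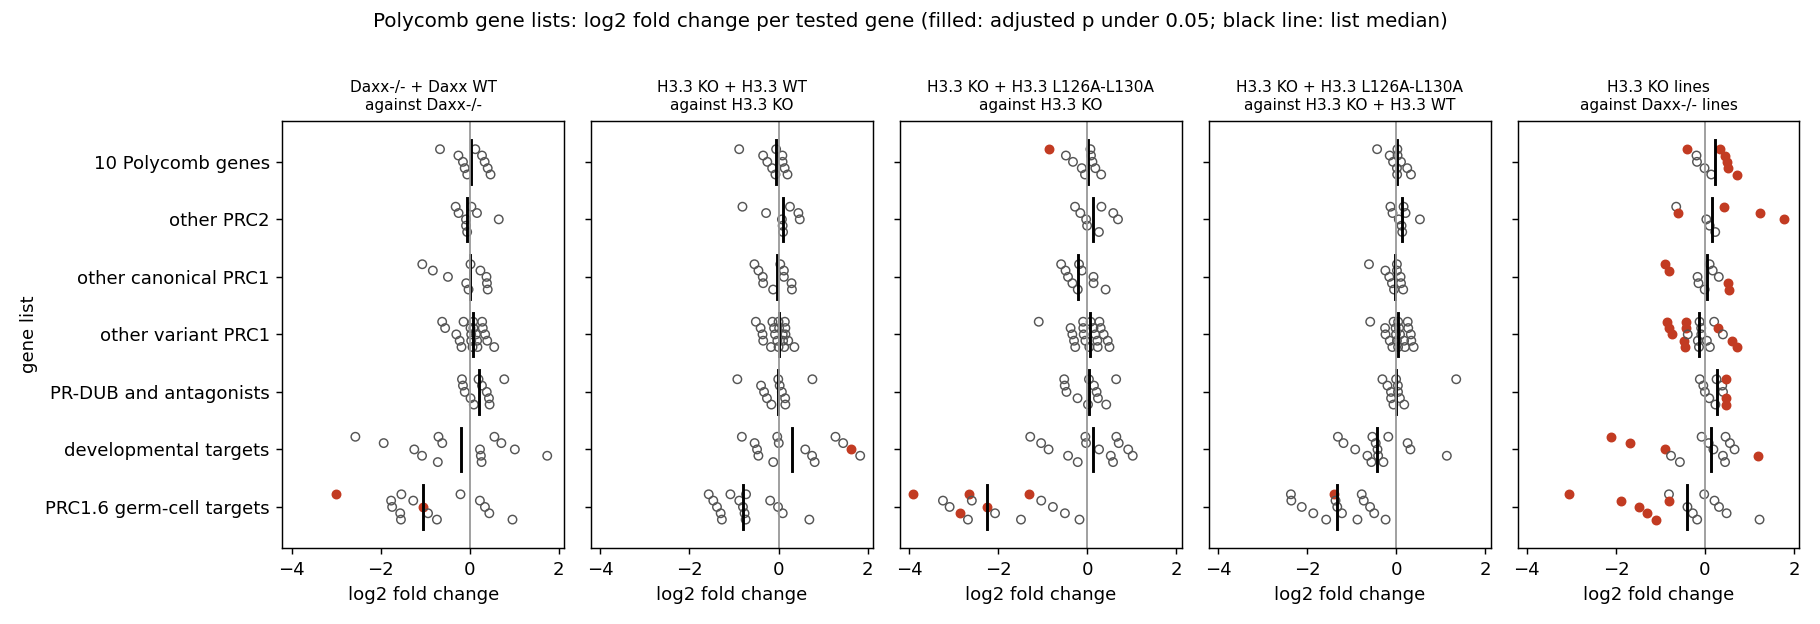
Log2 fold change (horizontal axis) of each tested gene of the 7 lists (vertical axis) in the 5 comparisons, with a black line at the list's median. The germ-cell genes lie below 0 with the mutant, where their median was -2.24, while the medians of the 5 lists of Polycomb subunits and antagonists lie between -0.20 and 0.26 in all comparisons.

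Genes that Polycomb complexes keep silent were counted as a readout next to the members. Of 30 developmental targets, 14 were under 1 CPM in every library and 14 passed the filter, and the list summed to 31.9 CPM in H3.3 KO replicate 1 and up to 119.6 CPM in Daxx-/- replicate 2. Within the families 1 call was made in edgeR, Cdkn2a with H3.3 WT at 1.62 (adjusted p 0.0265), 1 of 14 beside 0.25% of all genes, which stood without either Daxx-/- or either H3.3 KO + H3.3 L126A-L130A replicate and not without each of the other 6 libraries (adjusted p up to 0.311). Calls of 0 were made with Daxx WT, the mutant against H3.3 KO and the mutant against H3.3 WT, with 4, 2 and 2 of 14 genes at unadjusted p under 0.05 (28.6, 14.3 and 14.3%), beside 21.8, 16.9 and 12.3% of all genes. DESeq2 called 1, 1 and 2 there, beside 8.78%, 5.79% and 3.62% of all genes, and limma 0. Leaving out Daxx-/- replicate 1 gave 4 with Daxx WT, in a fit where 13.9% of all genes passed. Between the families 4 of 14 passed, beside 39.9% of all genes, Cdkn2a at -2.12, Cdkn2b at -1.69 and Eomes at -0.90 log2 being lower in the H3.3 KO lines and Sox1 at 1.19 higher. With an added gene against its parent line, these targets went both ways. Their median was -0.19 log2 with Daxx WT, where 7 of 14 were higher. It was 0.30 with H3.3 WT, where 8 were, and 0.12 with the mutant, where 7 were. In the mutant against H3.3 WT, 11 of 14 targets were lower and 3 higher, with a median of -0.44. Some tested targets lay near the floor. Over the 10 libraries T was at 0.109 to 1.52 CPM and Pax6 at 0.453 to 1.73. The part of Suz12 in the changes of the targets was not tested.

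The 15 germ-cell genes known as PRC1.6 targets all passed the filter. Their sum was 517 and 831 CPM in Daxx-/-, 269.8 and 370.3 with Daxx WT, 508 and 868 in H3.3 KO, 297 and 437 with H3.3 WT, and 68.2 and 186 with the mutant. This sum was lower in each line with an added gene than in its parent line. In every line the sum was higher in replicate 2 than in replicate 1. By gene, 11 of 15 were lower and 4 higher with Daxx WT, 13 lower and 2 higher with H3.3 WT, and all 15 lower with the mutant, and Pcgf6 itself did not pass in any comparison. In edgeR, 2 of 15 passed with Daxx WT, beside 1.41% of all genes, both lower: Smc1b at -2.99 (adjusted p 0.0342) and Stk31 at -1.06 (adjusted p 0.0297). DESeq2 called 4 there, beside 8.78% of all genes, and limma 4, beside 2.53%. Over all settings the count ran from 0 to 6, the highest with the replicate block, where 10.9% of all genes passed. With H3.3 WT 0 passed, beside 0.25%, with 4 at unadjusted p under 0.05, 0 in DESeq2 and in limma, and up to 3 under another setting, where 5.69% of all genes passed. With the mutant against H3.3 KO 5 passed, beside 0.962%, all lower: Dazl (-3.92, adjusted p 0.0325), Smc1b (-2.86, 0.0492), Slc25a31 (-2.65, 0.0229), Hormad1 (-2.24, 0.0456) and Stk31 (-1.31, 0.0212). DESeq2 called 10 here, beside 5.79% of all genes, and limma 6, beside 1.62%. All settings gave 0 to 11, the highest with the replicate block, where 5.86% passed. Against H3.3 WT the mutant had 1 call, beside 0.53%, Stk31 at -1.40 (adjusted p 0.0234). DESeq2 called 4 there, beside 3.62%, and limma 1, beside 0.765%. All settings gave 0 to 6, the highest with the replicate block, where 2.36% passed. Medians were -1.06, -0.80, -2.24 and -1.32 log2 in these 4 comparisons. At unadjusted p under 0.05 there were 6, 4, 11 and 7 of 15 in the same order, beside 21.8, 13.3, 16.9 and 12.3% of all genes. Between the families 6 of 15 passed, beside 39.9% of all genes, and all 6 were lower in the H3.3 KO lines, where 20.6% of all genes were, from -3.05 for Hormad1 to -0.80 for Zcwpw1.

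The germ-cell counts also moved with single libraries. With the mutant against H3.3 KO, edgeR called 7 without Daxx-/- replicate 1 or 2, 2 without Daxx-/- + Daxx WT replicate 1 or 2, 1 without H3.3 KO replicate 1, 6 without H3.3 KO + H3.3 L126A-L130A replicate 2, and 0 without H3.3 KO replicate 2, H3.3 KO + H3.3 WT replicate 1 or 2, or H3.3 KO + H3.3 L126A-L130A replicate 1. With Daxx WT it called 4 without Daxx-/- replicate 1, where 13.9% of all genes passed, 3 without H3.3 KO + H3.3 L126A-L130A replicate 2, 2 without H3.3 KO + H3.3 L126A-L130A replicate 1, and 0 without each of the other 7. The Stk31 call for the mutant against H3.3 WT stood without either Daxx-/- replicate, either Daxx-/- + Daxx WT replicate or H3.3 KO replicate 2, and without each of the other 5 libraries the count was 0. H3.3 KO + H3.3 L126A-L130A replicate 1, the library with the lowest germ-cell sum, also had the highest primed epiblast sum, and the part of that difference in the germ-cell counts was not tested. With Daxx WT other markers were lower along with the germ-cell genes: the 4 fibroblast markers tested had a median of -1.38 log2, with 3 at unadjusted p under 0.05, and the 4 primitive endoderm markers -1.69, with 2. None of these 8 was higher. Gata4, Gata6, Sox17 and Foxa2 are in both the primitive endoderm list and the list of developmental targets. T is in both the primed epiblast list and the list of developmental targets, so the counts of these lists are not separate. The primed epiblast markers went the other way with Daxx WT. Of these, 3 of 4 were higher, with a median of 0.78 log2 and 1 at unadjusted p under 0.05. With the mutant against H3.3 KO, 3 of 4 fibroblast markers were lower, with a median of -0.46, and 3 of 4 primitive endoderm markers, with a median of -1.08. Of either list 0 were at unadjusted p under 0.05. Of the primed epiblast markers 3 of 4 were higher there, with a median of 0.33 and 1 at unadjusted p under 0.05. In both comparisons 0 of these markers passed in edgeR, and their part in the germ-cell result was not tested.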

How the data were processed

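The deposited table gives RSEM expected counts, although its values are named TPM: the 10 columns sum to 15463625 to 21396585, and 61.4 to 67.6% of values, zeros included, are exactly whole (50.1 to 57.3% of values above 0). Per the labels, the authors aligned reads to mm9 with Bowtie and RSEM default settings, with no versions stated. Expected counts were rounded and fitted in edgeR 4.0.16 (R 4.3.3; glmQLFit, group means, no replicate block) on the 13201 of 20325 genes that reached 1 CPM in 2 or more libraries, with median-of-ratios factors (0.936 to 1.04). The common dispersion was 0.0522. P-values were adjusted by Benjamini-Hochberg over all genes tested in a comparison; calls used adjusted p under 0.05, and a further count required at least 2-fold. CPM are expected counts over the scaled total. Lengths are union exons of GENCODE vM21, on a later build than the deposited alignment. Alternatives were TMM, library size alone, no filter, a mean of at least 5 CPM, DESeq2 1.42.0, limma 3.58.1, a replicate block, each comparison fitted alone, and each library left out. Fits were tested on simulated data. The text names all members; of the other lists it names genes with adjusted p under 0.05 and some of the 3 largest fold changes per list and comparison. Genes near Suz12 and Mtf2 were chosen after their values were seen. The members and lists were chosen with earlier results of these data known.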

Additional observations from a re-analysis of the deposited data

Results flagged for a closer look

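Cdkn2a, which encodes cell-cycle inhibitors and is a known Polycomb target, stood out because its fold changes with H3.3 WT and with Daxx WT, each against its own parent line, had opposite signs, and the difference of the effects passed its test. Cdkn2a was at 46.6 and 58.5 CPM in Daxx-/-, 31.2 and 33.4 in Daxx-/- + Daxx WT, 4.70 and 6.39 in H3.3 KO, 17.6 and 16.6 in H3.3 KO + H3.3 WT, and 8.42 and 9.63 in H3.3 KO + H3.3 L126A-L130A. With H3.3 WT both libraries were above both H3.3 KO libraries, and with Daxx WT both were below both Daxx-/- libraries. The log2 fold changes were 1.62 (SE 0.21) and -0.70 (SE 0.20, adjusted p 0.102 in edgeR). The H3.3 WT effect minus the Daxx WT effect was 2.33 (SE 0.29, adjusted p 0.0485 in edgeR), 1 of 6 genes past the threshold among 13201. The mutant effect minus the Daxx WT effect was 1.41 (SE 0.29, adjusted p 0.223) and did not pass. For Cdkn2b, the neighbouring gene, the H3.3 WT effect (1.45) minus the Daxx WT effect (-1.07) was 2.52 (SE 0.56, p 0.00140, adjusted p 0.165), which did not pass either.

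Of 7 alternative fits of that Cdkn2a difference, chosen after seeing the data, 4 passed, and the adjusted p ran from 1.12e-08 to 0.0887, with the difference between 2.15 and 2.36. It did not pass with library size alone, with a mean of at least 5 CPM or in limma. Without Daxx-/- replicate 1 it passed at 0.0270, and without each of the other 9 libraries it did not, with adjusted p up to 0.339, while the difference stayed between 2.12 and 2.56. The cause was not tested.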

How the results depend on the processing

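Suz12 kept its direction under every alternative in all comparisons of an added gene with its parent line, and Mtf2 and Suz12 kept their calls between the families under every alternative but the 2-fold rule. The cause of the changes that follow was not tested. Of the members' fold changes under other settings, 371 kept direction and side of the threshold, 12 gained a call, 3 lost it and 4 turned sign. With a library left out, 430 kept both, 3 gained a call, 37 lost it and 30 turned sign.

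For Daxx WT, 143 genes passed with 2-fold; there were 233 with no filter, 531 in DESeq2, 240 in limma, 621 with a replicate block and 1 fitted alone, and 1 to 1074 with a library left out, the highest without Daxx-/- replicate 1. Members past the threshold numbered 1 (Suz12) with a mean of at least 5 CPM, in DESeq2 and in limma, 2 (Eed and Suz12) with the replicate block, and 0 to 1 with a library left out.

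For H3.3 WT, 33 genes became 53 with no filter, 209 in DESeq2, 55 in limma, 105 with a replicate block and 330 fitted alone, and 2 to 61 with a library left out. Suz12 made the members' count 1 with TMM, no filter, a mean of at least 5 CPM, DESeq2, limma, the replicate block and fitted alone, and 0 to 1 with a library left out.

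For the mutant against H3.3 KO, 104 genes became 203 with no filter, 444 in DESeq2, 173 in limma, 461 with a replicate block and 29 fitted alone, and 2 to 231 with a library left out. The members' count of 1 became 0 fitted alone, 0 with 2-fold required, and 0 to 1 with a library left out.

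For the mutant against H3.3 WT, 68 genes (33 higher, 35 lower) became 39 (23 higher, 16 lower) with library size alone, 125 with no filter, 38 with a mean of at least 5 CPM, 323 in DESeq2, 234 with a replicate block and 18 fitted alone, and 0 to 102 with a library left out. Between the families, 1649 genes became 890 with a mean of at least 5 CPM, 1083 in limma and 5271 with no minimum fold. The members' count there was 0 with 2-fold required and 2 to 5 with a library left out.

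Some small log2 fold changes turned sign. Pcgf6 in the mutant against H3.3 WT was -0.0097 with library size alone and -0.0060 with a mean of at least 5 CPM, and Rnf2 between the families was 0.0012 with TMM and 0.043 with library size alone. With a library left out, values crossed 0 over these ranges. With Daxx WT they were Ezh1 -0.50 to 0.039, Ezh2 -0.16 to 0.055, Lcor -0.61 to 0.047, Lcorl -0.57 to 0.12, Mtf2 -0.087 to 0.37 and Pcgf6 -0.41 to 0.15. With H3.3 WT they were Eed -0.19 to 0.046, Jarid2 -0.077 to 0.39, Mtf2 -0.17 to 0.066, Pcgf6 -0.29 to 0.015 and Ring1 -0.15 to 0.36. With the mutant against H3.3 KO they were Eed -0.037 to 0.38, Ezh2 -0.017 to 0.18, Jarid2 -0.14 to 0.32, Pcgf6 -0.31 to 0.048, Ring1 -0.12 to 0.39 and Rnf2 -0.20 to 0.088. With the mutant against H3.3 WT they were Bmi1 -0.75 to 0.14, E130012A19Rik -0.32 to 1.07, Ezh1 -0.13 to 0.16, Jarid2 -0.21 to 0.062, Pcgf6 -0.17 to 0.19, Ring1 -0.11 to 0.18 and Suz12 -0.10 to 0.18. Between the families the range was Rnf2 -0.059 to 0.040. A line left with 1 library was assumed to vary like the others.

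The block uses replicate numbers, which the labels tie to no shared batch or day. Differences between replicates correlated from -0.0441 to 0.574 between lines, over 0.1 in 7 of 10 pairs of lines and not in the other 3, each with H3.3 KO, so a shared pairing was not taken as given. With the block, Eed passed with Daxx WT at an adjusted p of 0.0413, where its alternatives ran up to 0.358. The family comparison was not fitted alone, since it uses every library. Depth limits Ring1 most, which had 116 to 202 expected counts in a library.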
